A study of Bos taurus with 8 samples.

Results

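The calpain system and the atrophy ligases are 10 genes of muscle protein breakdown: 3 calpains (CAPN1, CAPN2, CAPN3), the calpain inhibitor calpastatin (CAST), the lysosomal proteases cathepsin B and D (CTSB, CTSD), the muscle ubiquitin ligases FBXO32 and TRIM63, and the transcription factors FOXO1 and FOXO3. They were taken from a list of genes tied to meat tenderness and muscle loss, and each was read by the array probe whose RefSeq transcript belongs to it. Of the 10 genes, 7 matched a probe, and all 7 passed the filter on dim probes, against 6693 named genes on the whole array that did so. FBXO32, FOXO1 and FOXO3 matched no probe through a RefSeq accession, the only names used here. Probes under other accessions were not matched, so these 3 genes have no values here. Each of the 7 had 1 probe, printed as 2 spots per array, and was above background in all 16 channel readings.

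The study set semitendinosus muscle of 2 well-marbled cattle breeds, Hereford and Holstein-Friesian, against that of the lean breed Limousin. Total RNA came from 12 bulls aged 15 months, 4 of each breed, and the labels name no treatment. Each of 8 two-colour arrays carried 1 marbled bull and 1 Limousin bull. Hereford was always in the red dye Cy5 against Limousin in the green dye Cy3 on 1 slide, Holstein-Friesian was always in Cy3 against Limousin in Cy5 on the other, and 4 Limousin bulls, numbered alike, recurred on both. Breed, dye and slide therefore cannot be told apart within 1 marbled breed. The mean of both breeds per Limousin bull cancels a dye effect shared by the slides, and in the difference between the breeds it adds up. Whether the dye effect was alike on both slides was not tested. These samples are whole muscle, in which fewer cells of a type and less RNA per cell cannot be told apart.

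Calpains are calcium-activated proteases of the cytosol that cut structural proteins of the sarcomere and its anchors, and calpastatin binds and blocks the ubiquitous ones. Cathepsins digest proteins that reach the lysosome by autophagy. FBXO32 (atrogin-1) and TRIM63 (MuRF1) tag muscle proteins for the proteasome, and both are known targets of FOXO factors in wasting muscle. In beef, calpain activity after slaughter and its restraint by calpastatin are long associated with tenderness.

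Median signal above local background was 97 to 139 intensity units in Hereford, 30.5 to 46.5 in Holstein-Friesian, 63 to 88 in Limousin in Cy3 and 96.5 to 118 in Limousin in Cy5. The number of arrays, 4 per breed, limits the precision. All 9 measured markers of skeletal muscle, of 13 listed, were above background in every reading. Pairwise correlations of the log2 ratios over probes ran from 0.06 to 0.53 among the Hereford arrays and from 0.40 to 0.60 among the Holstein-Friesian arrays, across probes, which are not independent replicates.

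TRIM63 and CTSD rose and CAST fell in Holstein-Friesian muscle against Limousin, and no member passed the test in Hereford. With limma's moderated test and Benjamini-Hochberg adjustment over 17061 probes, 3 of 7 members were called in Holstein-Friesian, where 6.45% of all probes were, and the same 3 had an unadjusted p under 0.05, against 23.5% of all probes. In Hereford 0 of 7 were called, against 7.14% of all probes, and 1 member, CAST, had an unadjusted p under 0.05, against 24.2% of all probes. The comparison of both marbled breeds with Limousin called 0 of 7, against 0.598% of all probes, with CAST, CTSD and TRIM63 at an unadjusted p under 0.05, against 19.6% of all probes. The difference Hereford minus Holstein-Friesian called 0 of 7, against 2.71% of all probes, with CAPN1, CTSB, CTSD and TRIM63 at an unadjusted p under 0.05, against 21.1% of all probes. The median log2 ratio over the 7 members was -0.26 in Hereford and 0.19 in Holstein-Friesian, beside medians of 0.01 and -0.01 over all probes. Centring each array on its median in place of loess moved the median of all probes to 0.10 in Hereford, -0.20 in Holstein-Friesian and 0.36 in the difference, and ratios with median centring are therefore also given relative to that median where they turn sign. Both breeds were measured against the same Limousin bulls, so the paired values below are not independent of each other.

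**Figure D1:**
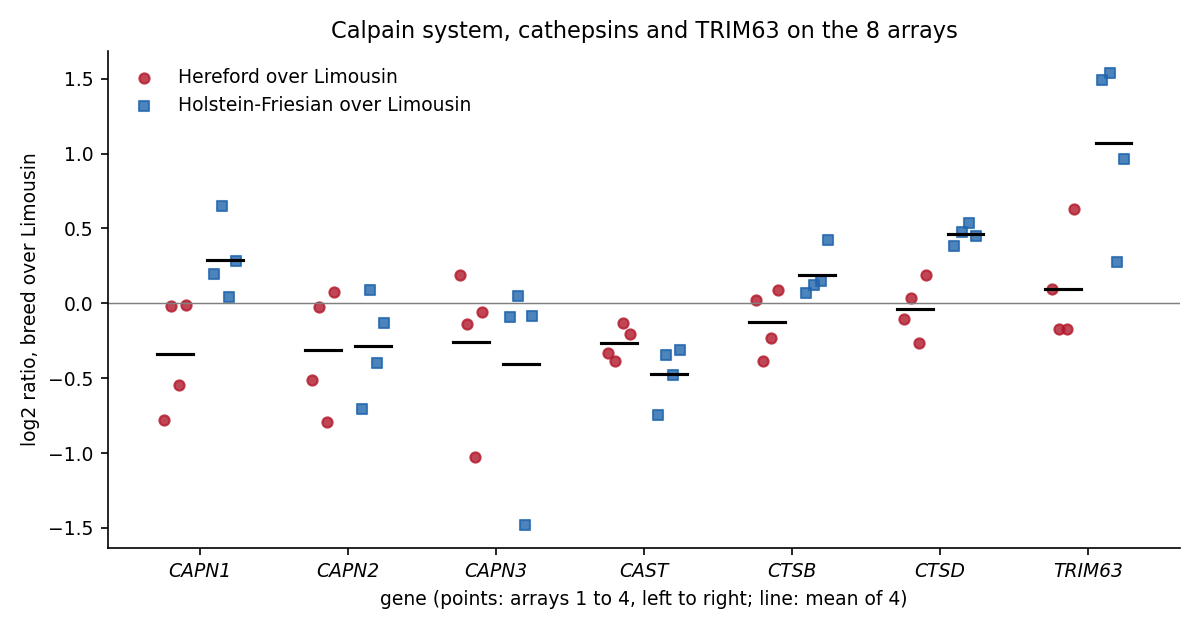
Log2 ratio of each breed over Limousin (vertical axis) for the 7 measured genes (horizontal axis), with 1 point per array, Hereford as red circles left of Holstein-Friesian as blue squares, and a line at the mean of 4. TRIM63 and CTSD lie above 0 on all 4 Holstein-Friesian arrays, CAST lies below 0 on all 8 arrays, and CAPN3 has 1 low array in each breed.

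Calpain-1 (CAPN1, μ-calpain) is the calpain active at low calcium. Its log2 ratios over Limousin were -0.78, -0.02, -0.54 and -0.01 in Hereford bulls 1 to 4. In Holstein-Friesian bulls 1 to 4 they were 0.19, 0.65, 0.04 and 0.29. Every Hereford array was below 0 and every Holstein-Friesian array above it, but 2 Hereford values and 1 Holstein-Friesian value lay close to 0. The means were -0.34 (SD 0.38, n = 4, limma adjusted p = 0.211) in Hereford and 0.29 (SD 0.26, n = 4, limma adjusted p = 0.282) in Holstein-Friesian, and neither was called. The Hereford minus Holstein-Friesian difference of -0.63 (95% interval -1.11 to -0.15) had a limma adjusted p of 0.142, and of 0.0494 in the fit with the shared Limousin bull as a replicate block. CAPN1 was also the member whose Limousin readings differed most between dyes: the same bulls read 0.33 log2 lower in Cy5 than in Cy3 (SD 0.16, n = 4), where all probes had a median of 0.01 and an SD over probes of 0.16. A comparison within a dye takes the level of the same-numbered Limousin bull from the other slide. It therefore crosses arrays, and a change between the readings mixes dye with slide. Compared within a dye, the CAPN1 level averaged 10.53 in Hereford against 10.54 in Limousin in Cy5. It averaged 10.83 in Holstein-Friesian against 10.86 in Limousin in Cy3. In that reading the difference between the breeds was 0.02 (limma adjusted p = 0.964), the opposite sign.

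Calpain-2 (CAPN2, m-calpain), which needs more calcium, was not called in either breed. Its log2 ratios were -0.51, -0.03, -0.79 and 0.08 in Hereford bulls 1 to 4. The Holstein-Friesian ratios were -0.70, 0.09, -0.40 and -0.13. In each breed bulls 1 and 3 had the lowest values, and the Limousin bulls of those numbers had the highest Limousin levels in both dyes. The mean over both breeds was -0.30 (95% interval -0.67 to 0.07, limma adjusted p = 0.343), and the difference between the breeds was -0.03 (95% interval -0.58 to 0.52, limma adjusted p = 0.963).

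Calpain-3 (CAPN3) is the muscle-specific calpain that sits on titin, and its loss causes a limb-girdle muscular dystrophy in humans. Its log2 ratios were 0.19, -0.14, -1.03 and -0.06 in Hereford bulls 1 to 4. In Holstein-Friesian bulls 1 to 4 they were -0.09, 0.05, -1.48 and -0.09. Array 3 stood far below the other 3 in each breed, and those others lay between -0.14 and 0.19. The level in Limousin bull 3 was 11.33 in Cy5 and 11.10 in Cy3, where the other Limousin readings were 10.17 to 10.696. Hereford bull 3, at 10.08, and Holstein-Friesian bull 3, at 9.85, had the lowest CAPN3 levels of their breeds. The means were -0.26 (SD 0.53, limma adjusted p = 0.645) in Hereford and -0.40 (SD 0.72, limma adjusted p = 0.433) in Holstein-Friesian, with n = 4 each. Without replicate 3 they were -0.0026 in Hereford and -0.043 in Holstein-Friesian, so the size of both rests on that replicate.

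Calpastatin was below its Limousin partner on all 8 arrays. The log2 ratios of CAST were -0.33, -0.38, -0.13 and -0.20 in Hereford bulls 1 to 4. They were -0.75, -0.34, -0.48 and -0.31 in Holstein-Friesian bulls 1 to 4. The breeds' values overlapped between -0.31 and -0.38. CAST fell by 0.47 log2 in Holstein-Friesian (SD 0.20, n = 4, limma adjusted p = 0.0192), a level 0.722 times that of Limousin (95% interval 0.632 to 0.824). The mean in Hereford was -0.26 (SD 0.12, n = 4, limma adjusted p = 0.0996), which did not pass.

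Read within a dye, the CAST levels of marbled and Limousin bulls did not overlap in either breed. In Cy5 they were 11.68, 11.59, 11.76 and 11.66 in Hereford bulls 1 to 4, against 12.12, 12.06, 12.11 and 12.08 in Limousin bulls 1 to 4. In Cy3 they were 11.37, 11.72, 11.63 and 11.76 in Holstein-Friesian bulls 1 to 4, against 12.02, 11.97, 11.89 and 11.86 in Limousin bulls 1 to 4. The Limousin bulls read 0.15 log2 higher in Cy5 than in Cy3 (SD 0.07, n = 4). The call depended on which Limousin reading was used, and between these readings dye, slide and array changed together. Within the same dye the Hereford difference was -0.42 (limma adjusted p = 0.0442) and the Holstein-Friesian difference -0.32 (limma adjusted p = 0.0754).

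Over both breeds, where a dye effect cancels, CAST averaged -0.37 (95% interval -0.54 to -0.20, n = 4 bulls, lower in 4 of 4, limma adjusted p = 0.0745). With the Limousin bull as a replicate block the limma adjusted p was 0.0263, in a fit that called 910 probes in place of 102. The difference between the breeds was 0.21 (95% interval -0.06 to 0.48, limma adjusted p = 0.36). With median centring the Holstein-Friesian ratio was -1.11 (limma adjusted p = 0.0034), which is -0.91 relative to the median of all probes. That setting called 6678 probes in Holstein-Friesian. The Hereford ratio was then -0.0078 (limma adjusted p = 0.98), which is -0.11 relative to the median of all probes. The Holstein-Friesian call was lost without each replicate in turn, with differences of -0.52 to -0.38 and limma adjusted p of 0.0509 to 0.0868. Leaving out a replicate also lowered the calls over the whole array. Without replicates 1, 2, 3 or 4 they numbered 810, 78, 275 and 127 in Holstein-Friesian, in place of 1100. In Hereford they numbered 1055, 45, 352 and 30, in place of 1218. In the difference between the breeds they numbered 457, 0, 24 and 0, in place of 463. Calls lost without a replicate, here and below, stand beside these totals.

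**Figure D2:**
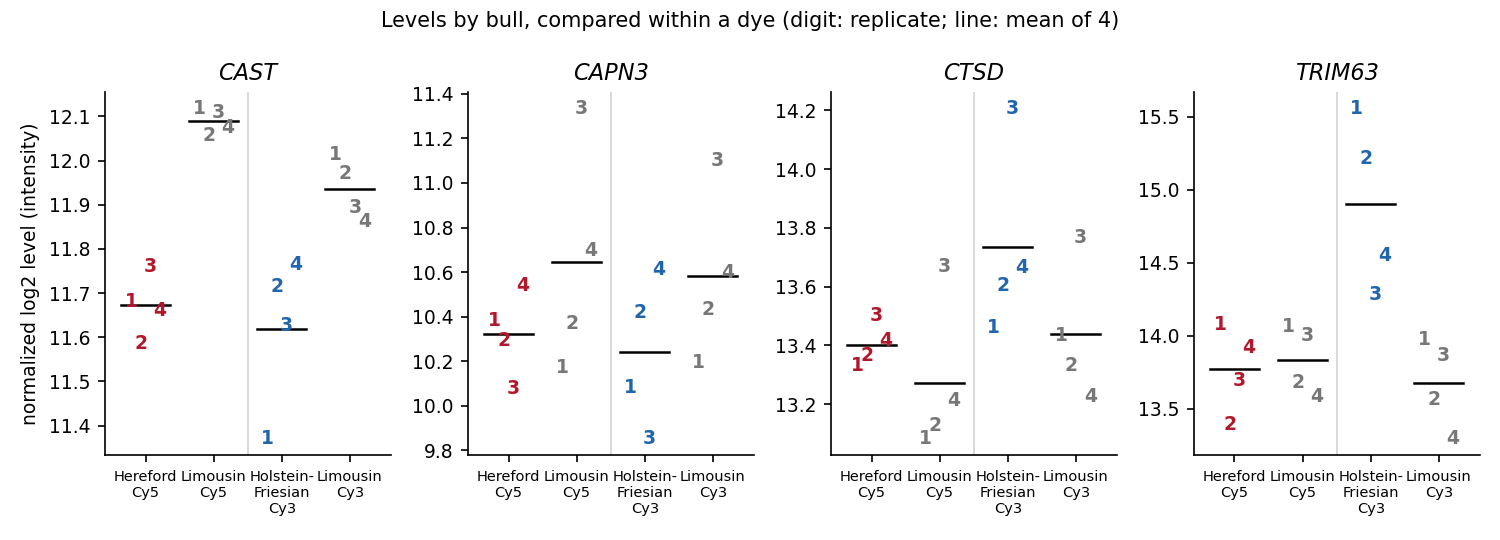
Normalized log2 level (vertical axis) of CAST, CAPN3, CTSD and TRIM63 in each bull, with Hereford and Limousin in Cy5 left of the grey line and Holstein-Friesian and Limousin in Cy3 right of it. Digits are replicate numbers, and each black line is the mean of 4. CAST is lower in every marbled bull than in every Limousin bull of the same dye, Limousin bull 3 has the highest CAPN3 level in both dyes, and TRIM63 is higher in every Holstein-Friesian bull than in every Limousin bull in Cy3.

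The calpains were set beside their inhibitor by subtracting the log2 ratio of CAST from that of each calpain on the same array, a description with no test. CAPN1 minus CAST was -0.44, 0.37, -0.41 and 0.19 in Hereford bulls 1 to 4. It was 0.94, 0.99, 0.52 and 0.60 in Holstein-Friesian bulls 1 to 4. The shift of CAPN1 relative to CAST had no common sign in Hereford, with a mean of -0.08 (SD 0.41), and was above 0 in all 4 Holstein-Friesian bulls, with a mean of 0.76 (SD 0.24). The same-dye reading gave means of 0.41 (SD 0.33) in Hereford and 0.28 (SD 0.22) in Holstein-Friesian, where the Hereford mean was the higher one. CAPN2 minus CAST averaged -0.05 (SD 0.47) in Hereford and 0.19 (SD 0.18) in Holstein-Friesian, and in the same-dye reading 0.19 (SD 0.47) in Hereford and -0.06 (SD 0.20) in Holstein-Friesian. CAPN3 minus CAST averaged 0.0046 (SD 0.62) in Hereford and 0.07 (SD 0.73) in Holstein-Friesian, and in the same-dye reading 0.10 (SD 0.69) in Hereford and -0.025 (SD 0.66) in Holstein-Friesian. The sign of the Holstein-Friesian means of CAPN2 and CAPN3 thus turned in the same-dye reading, as did that of CAPN1 and CAPN2 in Hereford. The Holstein-Friesian mean of CAPN1 stayed above 0 in both readings.

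Cathepsin B (CTSB), a cysteine protease of the lysosome, was not called in either breed. Its log2 ratios were 0.02, -0.39, -0.23 and 0.09 in Hereford bulls 1 to 4. In Holstein-Friesian bulls 1 to 4 they were 0.07, 0.12, 0.15 and 0.42. All 4 Holstein-Friesian values were above 0, while the Hereford values fell on both sides of it. The means were -0.13 (SD 0.22, limma adjusted p = 0.481) in Hereford and 0.19 (SD 0.16, limma adjusted p = 0.275) in Holstein-Friesian, with n = 4 each, and the difference of -0.31 had a limma adjusted p of 0.228. Within a dye, CTSB levels were 12.12 to 12.43 in Hereford against 12.45 to 12.56 in Limousin in Cy5. They were 12.52 to 12.98 in Holstein-Friesian against 12.30 to 12.51 in Limousin in Cy3. Neither pair of ranges overlapped, although the gaps were narrow.

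Cathepsin D (CTSD), the main aspartic protease of the lysosome, rose in Holstein-Friesian. Its log2 ratios were -0.10, 0.03, -0.27 and 0.19 in Hereford bulls 1 to 4. They were 0.38, 0.47, 0.54 and 0.45 in Holstein-Friesian bulls 1 to 4. The Holstein-Friesian values were close together and all above the highest Hereford value. Its Hereford mean was -0.04 (SD 0.19, n = 4, limma adjusted p = 0.835), and CTSD rose by 0.46 log2 in Holstein-Friesian (SD 0.07, n = 4, limma adjusted p = 0.016), or 1.38-fold (95% interval 1.22 to 1.56).

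The CTSD difference Hereford minus Holstein-Friesian was -0.50 (95% interval -0.75 to -0.25). Its limma adjusted p was 0.055, and 0.022 with the replicate block, a fit that called 1714 probes for this difference in place of 463. In the same-dye reading the difference was -0.16 (limma adjusted p = 0.544). With median centring it was 0.52 (limma adjusted p = 0.106), which is 0.16 relative to the median of all probes. Within a dye, CTSD levels overlapped between breeds, at 13.33 to 13.50 in Hereford against 13.08 to 13.67 in Limousin in Cy5. In Cy3 they were 13.46, 13.60, 14.21 and 13.67 in Holstein-Friesian bulls 1 to 4, against 13.43, 13.33, 13.77 and 13.23 in Limousin bulls 1 to 4. Bull number 3 was the highest in each of these 4 sets. The same-dye difference of Holstein-Friesian was 0.29 (limma adjusted p = 0.118), and with median centring in place of loess the ratio was -0.21 (limma adjusted p = 0.322), which is -0.01 relative to the median of all probes. The call was also lost without replicates 2, 3 or 4, at 0.46, 0.44 and 0.46 log2 with limma adjusted p of 0.105, 0.0529 and 0.0686.

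TRIM63 had the largest difference of the 7 members in Holstein-Friesian, ranked in the top 1.27% of 17061 probes by absolute log2 ratio. Its log2 ratios were 0.10, -0.17, -0.17 and 0.63 in Hereford bulls 1 to 4. They were 1.49, 1.54, 0.28 and 0.97 in Holstein-Friesian bulls 1 to 4. Holstein-Friesian bulls 1, 2 and 4 were above every Hereford value, and bull 3 was below the highest of them. The Hereford mean was 0.10 (SD 0.38, n = 4, limma adjusted p = 0.847), and TRIM63 rose by 1.07 log2 in Holstein-Friesian (SD 0.59, n = 4, limma adjusted p = 0.0301), which is 2.10-fold (95% interval 1.48 to 2.96).

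The TRIM63 levels in Cy3 were 15.56, 15.21, 14.28 and 14.55 in Holstein-Friesian bulls 1 to 4, against 13.98, 13.56, 13.86 and 13.29 in Limousin bulls 1 to 4. The lowest Holstein-Friesian level was above the highest Limousin level, and the same-dye difference was 1.23 (limma adjusted p = 0.0151). In Cy5 the levels were 14.07, 13.39, 13.69 and 13.92 in Hereford bulls 1 to 4, against 14.06, 13.68, 14.001 and 13.58 in Limousin bulls 1 to 4, and these overlapped throughout. The difference Hereford minus Holstein-Friesian was -0.97 (95% interval -1.68 to -0.27), which did not pass (limma adjusted p = 0.126). Over both breeds TRIM63 averaged 0.58 (95% interval 0.21 to 0.96, higher in 4 of 4 bulls, limma adjusted p = 0.127). With median centring the Holstein-Friesian ratio was 0.40 (limma adjusted p = 0.335), which is 0.60 relative to the median of all probes. The Hereford ratio was then 0.46 (limma adjusted p = 0.438), or 0.36 relative to the median of all probes. The difference was 0.066 (limma adjusted p = 0.914), or -0.29 relative to the median of all probes. Without replicate 3 the Holstein-Friesian ratio was 1.33 (limma adjusted p = 0.0369). Without replicates 1, 2 or 4 it was 0.93, 0.91 and 1.10, with limma adjusted p of 0.0995, 0.153 and 0.111.

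Counted by levels alone, 4 of 7 members (CAPN2, CAST, CTSB, TRIM63) did not overlap between Holstein-Friesian and Limousin in Cy3, where 14.3% of all probes did not. For CAPN2, not called in its ratio (limma adjusted p = 0.36), the highest Holstein-Friesian level was 12.275 and the lowest Limousin level 12.285. For CTSB the lowest Holstein-Friesian level was 12.518 and the highest Limousin level 12.51, so both gaps were narrow. Between Hereford and Limousin in Cy5, 2 of 7 (CAST, CTSB) did not overlap, where 15.9% of all probes did not. CAST was lower and not overlapping in both, whereas CTSB was lower in Hereford and higher in Holstein-Friesian.

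**Figure D3:**
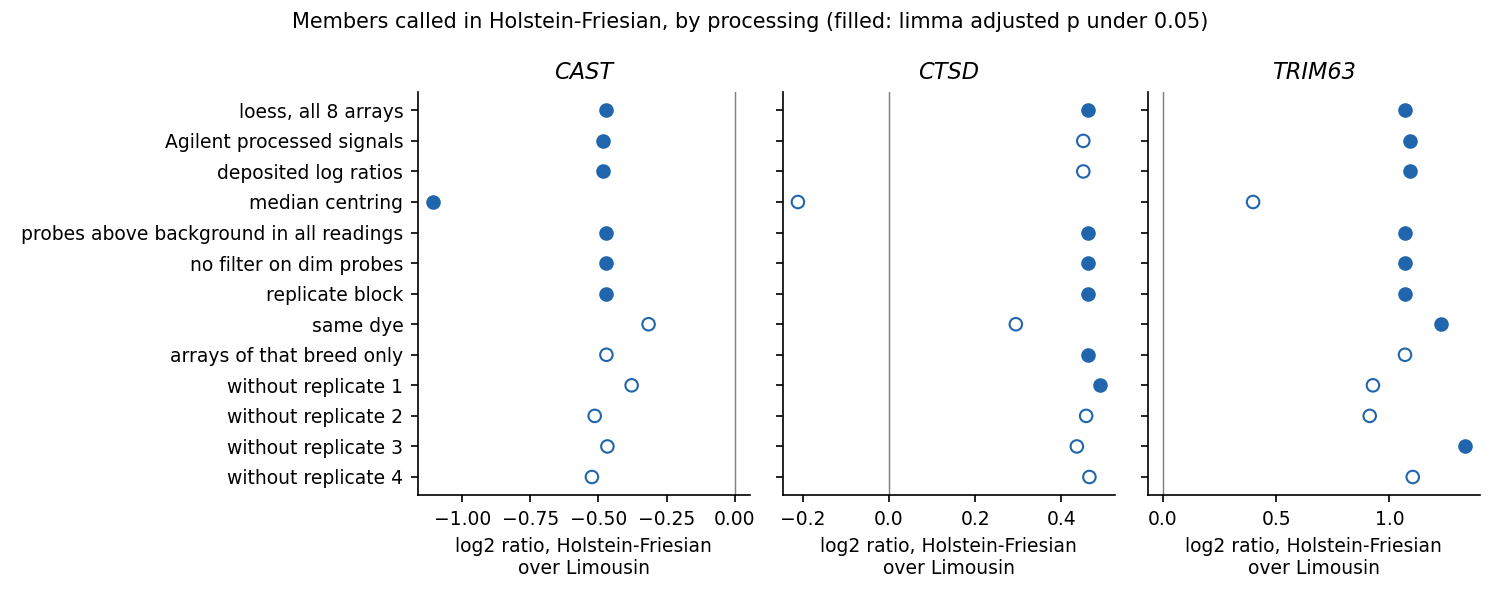
Log2 ratio of Holstein-Friesian over Limousin (horizontal axes) for CAST, CTSD and TRIM63 under each way of processing (rows), filled where the limma adjusted p is under 0.05. CAST stays below 0 and TRIM63 above 0 in every row, while CTSD turns to -0.21 with median centring.

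The wider calpain system, from a list chosen with earlier results known, gave 0 called of 3 measured genes among 13 listed. Of all probes 7.14% were called in Hereford, 6.45% in Holstein-Friesian, 0.598% over both breeds and 2.71% in the difference. CAPNS1, the small regulatory subunit shared by calpain-1 and calpain-2, averaged -0.06 over both breeds (SD 0.16, n = 4 bulls, limma adjusted p = 0.755). CAPN5, a calpain without the calcium-binding domain that pairs with it, averaged -0.17 (SD 0.05, n = 4 bulls, limma adjusted p = 0.15). Of proteins cut by calpains in muscle, 4 of 11 listed genes were measured. In Hereford 1 fell, where 7.14% of all probes were called, and in Holstein-Friesian 1 rose and 1 fell, where 6.45% were. VCL, encoding vinculin of the costamere, fell in both breeds, by 0.73 in Hereford (limma adjusted p = 0.045) and by 0.73 in Holstein-Friesian (limma adjusted p = 0.0498). ANKRD1, a titin-binding ankyrin repeat protein, had a Hereford ratio of 1.60 (limma adjusted p = 0.0763) and rose by 1.96 in Holstein-Friesian (limma adjusted p = 0.0459, and 0.052 with the replicate block). The VCL call in Hereford did not hold with Agilent's processed signals (-0.76, limma adjusted p = 0.0578), median centring (-0.42, 0.33) or the same dye (-0.69, 0.0685). In Holstein-Friesian VCL was at -1.38 with median centring (limma adjusted p = 0.00505), where ANKRD1 no longer passed (1.27, 0.064). Without the filter on dim probes the limma adjusted p of VCL was 0.0571 in Hereford and 0.0627 in Holstein-Friesian, and that of ANKRD1 0.0615. The VCL and ANKRD1 calls were lost without each replicate in turn, with VCL at -0.88 to -0.54 in Hereford and -0.90 to -0.65 in Holstein-Friesian and ANKRD1 at 1.53 to 2.46. Fitted on the arrays of 1 breed alone, 14 of the 18 within-breed calls of list genes described here and below did not pass (limma adjusted p of 0.0518 to 0.12), and the 4 that did were those of GABARAPL1, MDM2, PDK4 and SMAD2 in Holstein-Friesian. Over all probes that fit called 27 in Hereford in place of 1218, and 839 in Holstein-Friesian in place of 1100.

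Among other cathepsins and their cystatin inhibitors, 9 of 15 listed genes were measured, with medians of -0.16 in Hereford and 0.18 in Holstein-Friesian. In Hereford 1 fell, against 7.14% of all probes called, and in Holstein-Friesian 2 rose, against 6.45% called. CTSF, a cysteine cathepsin, had log2 ratios of -0.31, -0.31, -0.29 and -0.50 in Hereford bulls 1 to 4, against 0.64, 1.09, 1.97 and 0.86 in Holstein-Friesian bulls 1 to 4. It was below 0 in every Hereford bull and above it in every Holstein-Friesian bull. CTSF rose by 1.14 in Holstein-Friesian (SD 0.58, n = 4, limma adjusted p = 0.0148), and the difference Hereford minus Holstein-Friesian was -1.496 (limma adjusted p = 0.0341). With median centring both were smaller but passed, at 0.47 (limma adjusted p = 0.0262) and -0.54 (limma adjusted p = 0.0493).

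CTSW, a cathepsin best known from cytotoxic lymphocytes, rose by 0.38 in Holstein-Friesian (SD 0.20, n = 4, limma adjusted p = 0.031), with a difference between the breeds of -0.61 (limma adjusted p = 0.0357). With Agilent's processed signals and with the deposited log ratios both were larger, at 1.06 and -1.56. CTSA, the lysosomal carboxypeptidase that protects other lysosomal enzymes, fell by 0.50 in Hereford (SD 0.19, n = 4, limma adjusted p = 0.0263). Its difference between the breeds was -0.78 (limma adjusted p = 0.0344), and 0.13 with median centring (limma adjusted p = 0.617), which is -0.23 relative to the median of all probes. In Hereford CTSA was at -0.23 with median centring (limma adjusted p = 0.397) and at -0.52 with processed signals (limma adjusted p = 0.0696). Within the same dye the differences of CTSW and CTSA no longer passed, at -0.53 (limma adjusted p = 0.0628) and -0.68 (limma adjusted p = 0.076), and neither did the fall of CTSA in Hereford, at -0.45 (limma adjusted p = 0.0667). All calls of CTSW were lost without each replicate in turn, at 0.28 to 0.43 for the rise and -0.68 to -0.50 for the difference. The rise of CTSF was lost without replicate 2 (1.16) or 4 (1.23), and its difference without replicates 2 (-1.53), 3 (-1.24) or 4 (-1.54). Without replicate 2 or 4 the difference between the breeds called 0 probes on the whole array, so no gene could keep such a call there. Without replicate 3 it called 24. The fall and the difference of CTSA were lost without replicates 2 (-0.54 and -0.80), 3 (-0.56 and -0.77) or 4 (-0.44 and -0.71).

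Genes of the lysosome and autophagy gave 15 measured of 22 listed, of which 0 were called in Hereford, against 7.14% of all probes, and 2 rose in Holstein-Friesian, against 6.45% of all probes called. These encode proteins of the GABARAP group, which are attached to the autophagosome membrane. GABARAPL1 had log2 ratios of 0.67, -0.24, 0.95 and 0.61 in Hereford bulls 1 to 4, against 2.17, 1.76, 1.16 and 0.90 in Holstein-Friesian bulls 1 to 4. Its Hereford mean was 0.50 (limma adjusted p = 0.251). It rose by 1.497 in Holstein-Friesian (SD 0.57, n = 4, limma adjusted p = 0.0141), and the difference between the breeds did not pass (-0.999, limma adjusted p = 0.149). GABARAP rose by 0.62 (SD 0.30, n = 4, limma adjusted p = 0.0166), but its ratio was -0.06 with median centring (0.14 relative to the median of all probes) and 0.21 in the same dye (limma adjusted p = 0.249). GABARAPL1 did not pass with median centring either, at 0.87 (limma adjusted p = 0.0654). Both rises were lost without replicates 2, 3 or 4, at 1.41, 1.61 and 1.70 for GABARAPL1 and 0.57, 0.53 and 0.64 for GABARAP.

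Other ubiquitin ligases of muscle gave 9 measured of 22 listed, of which 1 rose in Hereford, against 7.14% of all probes called, and 1 rose and 1 fell in Holstein-Friesian, against 6.45%. TRIM32, a ligase of the same protein family as TRIM63 that acts on desmin filaments and thin-filament proteins, had log2 ratios of 0.72, 0.49, 0.77 and 0.78 in Hereford bulls 1 to 4. Holstein-Friesian bulls 1 to 4 had 0.52, 0.18, 0.74 and 0.43. TRIM32 was thus above Limousin on all 8 arrays, including those of Hereford where TRIM63 had no common sign. It rose by 0.69 in Hereford (SD 0.14, n = 4, limma adjusted p = 0.00977) and by 0.47 in Holstein-Friesian (SD 0.23, n = 4, limma adjusted p = 0.029), the Holstein-Friesian ratio being -0.046 with median centring (0.15 relative to the median of all probes). In the same dye the TRIM32 differences were 0.45 in Hereford (limma adjusted p = 0.0482) and 0.70 in Holstein-Friesian (limma adjusted p = 0.0104). The Hereford call was lost without replicate 4 (0.66, limma adjusted p = 0.0879) and the Holstein-Friesian call without each replicate in turn (0.37 to 0.56).

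MDM2, the ligase of p53, had a Hereford mean of 0.13 (limma adjusted p = 0.47) and fell by 0.62 in Holstein-Friesian (SD 0.23, n = 4, limma adjusted p = 0.0114). The MDM2 difference Hereford minus Holstein-Friesian was 0.75 (limma adjusted p = 0.0341). Both were larger with median centring, at -1.20 and 1.56, and in the same dye, at -1.24 and 1.97. The fall was lost without replicates 2 (-0.69), 3 (-0.68) or 4 (-0.52), and the difference without each in turn (0.67 to 0.80).

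FOXO factors themselves have no values here, and only their neighbours are described. Of their regulators, 7 of 19 listed genes were measured, and of genes known as FOXO targets, 6 of 20. In Hereford 1 regulator rose, and in Holstein-Friesian 1 fell, against the same 7.14% and 6.45% of all probes called. PDK4, the kinase that closes the pyruvate dehydrogenase gate and is a classic FOXO target, had log2 ratios of 2.81, 3.33, 1.75 and 2.94 in Hereford bulls 1 to 4. Holstein-Friesian bulls 1 to 4 had ratios of 4.16, 4.16, 2.18 and 1.71. PDK4 was above Limousin on all 8 arrays, with the lowest ratio in Holstein-Friesian bull 4. It rose by 2.71 in Hereford (SD 0.68, n = 4, limma adjusted p = 0.0168) and by 3.05 in Holstein-Friesian (SD 1.29, n = 4, limma adjusted p = 0.0112).

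GADD45A, a growth-arrest gene linked to muscle atrophy, rose by 1.65 in Hereford (SD 0.60, n = 4, limma adjusted p = 0.0127) and by 1.09 in Holstein-Friesian (SD 0.50, n = 4, limma adjusted p = 0.0391). CAT, encoding catalase, fell by 0.53 in Hereford (SD 0.20, n = 4, limma adjusted p = 0.0375, and 0.0514 with the replicate block). Of the 6 target genes 2 rose and 1 fell in Hereford, where 7.14% of all probes were called, and 2 rose in Holstein-Friesian, where 6.45% were. Their medians were -0.18 in Hereford and 0.02 in Holstein-Friesian. In Holstein-Friesian GADD45A did not pass with median centring (0.46, limma adjusted p = 0.144) or without the filter on dim probes (limma adjusted p = 0.0508). CAT did not pass with median centring (-0.26, limma adjusted p = 0.526) or with processed signals (-0.53, limma adjusted p = 0.0955). Without replicates 2 or 4 the Hereford calls were lost for PDK4 (2.498 and 2.63) and GADD45A (1.89 and 1.72), and without replicate 2 that of PDK4 in Holstein-Friesian (2.68). GADD45A in Holstein-Friesian (0.88 to 1.26) and CAT in Hereford (-0.59 to -0.43) lost their calls without each replicate in turn.

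PPARGC1A (PGC-1α), a coactivator of mitochondrial genes that restrains FOXO3 in mouse muscle, rose by 1.53 in Hereford (SD 0.76, n = 4, limma adjusted p = 0.0353), and its Holstein-Friesian mean was 0.65 (limma adjusted p = 0.292). With median centring the Hereford ratio was 1.76 (limma adjusted p = 0.057). SMAD2, which carries the myostatin and TGF-β signal, fell by 0.49 in Holstein-Friesian (SD 0.10, n = 4, limma adjusted p = 0.0244), and its difference between the breeds was 0.83 (limma adjusted p = 0.0263). Within the same dye the SMAD2 values were -0.12 in Holstein-Friesian (limma adjusted p = 0.5) and 0.09 for the difference (limma adjusted p = 0.736), and with median centring -1.03 and 1.58. Without replicates 2, 3 or 4 the calls were lost for PPARGC1A (1.52, 1.29 and 1.44), for SMAD2 in Holstein-Friesian (-0.51, -0.50 and -0.51) and for its difference (0.85, 0.80 and 0.78).

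**Figure D4:**
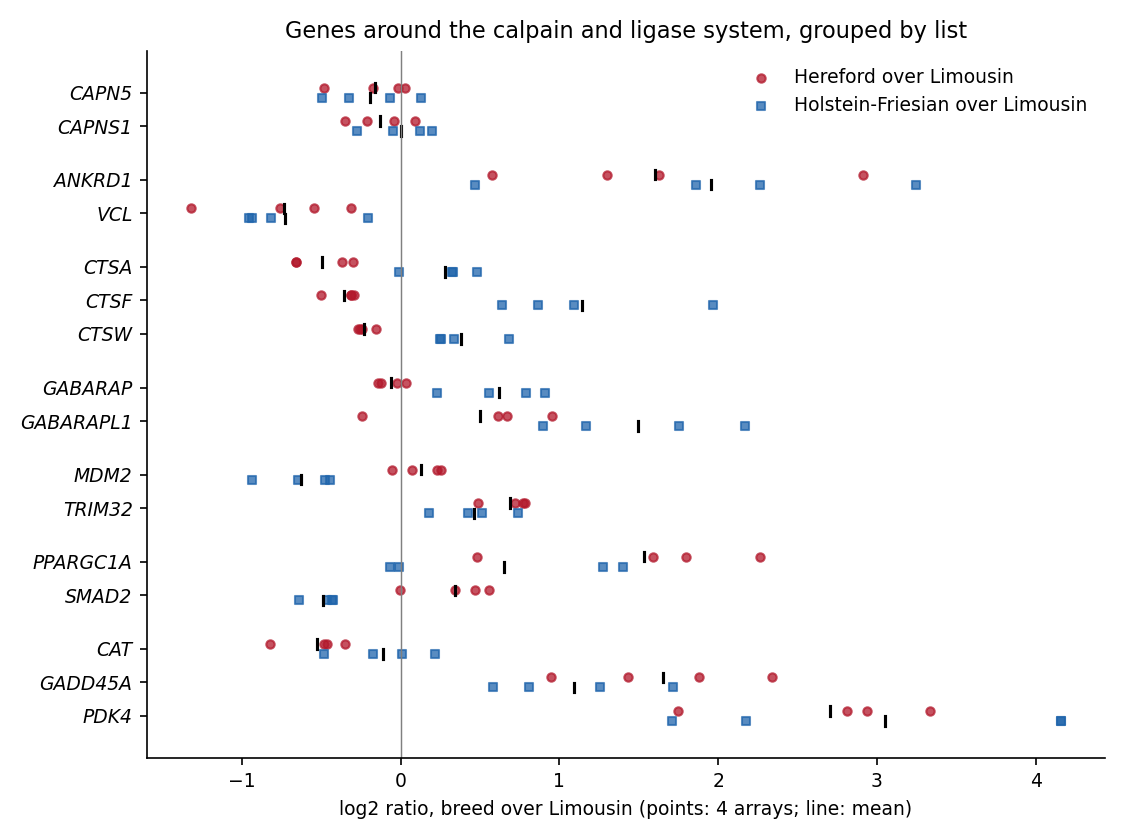
Log2 ratio of each breed over Limousin (horizontal axis) for genes named from 7 lists around the calpain and ligase system (rows, with a gap between lists), 1 point per array, Hereford as red circles above Holstein-Friesian as blue squares, and a black line at each mean. PDK4 and GADD45A lie above 0 on all 8 arrays, VCL below 0 on all 8, and CTSF and CTSW below 0 in Hereford and above 0 in Holstein-Friesian.

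Lysosomal proteases are abundant in macrophages, and the ratios of macrophage and monocyte markers had the same signs as most cathepsins in each breed. Of 10 such markers 5 were measured (CD68, C1QA, CD14, LYZ and AIF1), all above background in every reading. In either breed 0 were called, against 7.14% of all probes in Hereford and 6.45% in Holstein-Friesian. Their median log2 ratio was -0.34 in Hereford, with 5 of 5 below 0, and 0.49 in Holstein-Friesian, with 5 of 5 above 0. The log2 of their summed level was 10.75 to 11.55 in Hereford against 10.90 to 11.995 in Limousin in Cy5. It was 11.67 to 13.30 in Holstein-Friesian against 11.22 to 12.25 in Limousin in Cy3, and both pairs of ranges overlapped. The part of these cells in the values of CTSB, CTSD and the other cathepsins was not tested.

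Fibre type and connective tissue were followed by their own markers. Of 9 slow-twitch markers 7 were measured, with a median log2 ratio of 1.37 in Hereford (4 rose, where 7.14% of all probes were called) and 0.88 in Holstein-Friesian (1 rose, where 6.45% were called), and the log2 of their summed level did not overlap with Limousin in either dye: 18.72 to 19.33 in Hereford against 17.81 to 18.47 in Limousin in Cy5, and 18.62 to 19.83 in Holstein-Friesian against 17.51 to 17.98 in Limousin in Cy3. Of 11 fast-twitch markers 7 were measured, with a median of 0.29 in Hereford (0 called, against 7.14% of all probes) and -0.48 in Holstein-Friesian (2 called, against 6.45%). In Holstein-Friesian PVALB, encoding the calcium buffer parvalbumin, fell by 1.90 (limma adjusted p = 0.0111) and TNNC2, encoding fast troponin C, fell by 0.68 (limma adjusted p = 0.0187). The log2 of their summed level was 19.91 to 20.07 in Hereford against 19.91 to 20.06 in Limousin in Cy5, and 19.58 to 19.74 in Holstein-Friesian against 19.45 to 19.74 in Limousin in Cy3, and both pairs overlapped. Of 8 fibroblast markers 7 were measured, with a median of 0.10 in Hereford (0 called, against 7.14% of all probes) and -0.66 in Holstein-Friesian (1 called, against 6.45%). The 1 called was COL3A1, a fibrillar collagen, which fell by 2.53 in Holstein-Friesian (limma adjusted p = 0.0125), while DCN and PDGFRA were at 0.23 and 0.27. The log2 of their summed level was 15.07 to 15.78 in Hereford against 14.92 to 15.76 in Limousin in Cy5, with overlap, and 13.997 to 15.02 in Holstein-Friesian against 15.08 to 15.78 in Limousin in Cy3, without overlap. The part of these markers' cells and fibres in the values of TRIM63, CAST or the calpains was not tested.

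As a description, the named genes whose 8 log2 ratios were most like those of CAST were PPP1R14C (Pearson r = 0.972), WWTR1 (r = 0.949) and MSL3 (r = 0.948). Those most like CAPN3 were HS6ST1 (r = 0.971), GJD2 (r = 0.971) and CDC27 (r = 0.969). The 8 arrays share 4 Limousin bulls and fall into 2 dye orientations, and the likeness to CAPN3 follows a profile set mainly by array 3 of each breed. No such gene could be sought for FBXO32 or FOXO1.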

How the data were processed

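Semitendinosus RNA of 12 bulls was measured on 8 two-colour Agilent arrays. Spot and background brightness was deposited as intensity, the median over pixels per channel, per the file headers, with Agilent Feature Extraction (10.7.3.1), as the submitters' processing notes name it. Processed signals (intensity too, per the file headers) had been background-subtracted and dye-normalized by that program. Values in the deposited table were log10 of Cy5 over Cy3 and matched the scanner's log ratio in all 44407 spots of each array, so Limousin stood on top for the Holstein-Friesian arrays. No value column lacked a sample (0 left).

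Analysis used R 4.3.3 with limma 3.58.1, statmod 1.5.0, data.table (1.17.8) and jsonlite 2.0.0, and plots used matplotlib 3.10.9. Background was corrected by normexp (offset 50), followed by loess within arrays (span 0.3, controls at weight 0), and all ratios were expressed as breed over Limousin. Control and outlier spots were left out and spots averaged over 21475 probes. A probe was kept with at least 4 of 16 channel readings well above background (17061 kept). Probes were named through RefSeq transcripts of assembly ARS-UCD2.0, which gave 8297 probes a symbol, 7079 of them kept. That assembly served for names only, since the array annotation follows another build, and probe sequences were not used here. Separate channel levels were scaled with Aquantile after loess. The same-dye reading set each marbled bull against the same-numbered Limousin bull in the same dye, on the other slide.

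limma's lmFit and eBayes gave the breed means from all 8 arrays together, and the marbled comparison over 4 values, 1 per Limousin bull. Tests were two-sided, adjusted by Benjamini-Hochberg over all kept probes, with a call under 0.05. The script was tested on simulated data. Intervals are limma's 95% intervals.

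The members, the gene lists and the tests were chosen with earlier results of these data known. Named were all 10 members; from each pathway list the called genes, up to 4 by smallest p, or else the 2 of smallest p over both marbled breeds; and the 3 genes most like CAPN3 and CAST by Pearson r. The replicate numbers pair the arrays, because the labels give the same Limousin bull under each number; deviations from the breed means correlated at 0.41, 0.27, 0.50 and 0.10 for bulls 1 to 4. The block fit used duplicateCorrelation (consensus correlation 0.31). Alternatives were Agilent's processed signals, deposited log ratios, median centring, 2 other filters on dim probes, the replicate block, the same-dye reading, the arrays of 1 breed, and leaving out each replicate. Bulls are separate animals per the labels.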

Additional observations from a re-analysis of the deposited data

Results flagged for a closer look

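One array stood apart in CAPN3: Holstein-Friesian array 3 had a log2 ratio of -1.48, with a gap to the nearest of the other 3 arrays that took up 0.909 of the whole range. Among genes named from the lists, CTSF on Hereford array 4 (-0.50, gap 0.908) and SMAD2 on Holstein-Friesian array 1 (-0.64, gap 0.835) stood apart by the same measure. Each gap was above Dixon's 95% critical value for 4 arrays; 46 sets of 4 arrays were examined, and chance marks about 1 in 20.

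CAPN1 lay below 0 on every Hereford array and above 0 on every Holstein-Friesian array, a difference of -0.63, and the test of that difference did not pass without the block (limma adjusted p = 0.142). The difference Hereford minus Holstein-Friesian passed limma's test for CTSF (-1.496), CTSA (-0.78), CTSW (-0.61), MDM2 (0.75) and SMAD2 (0.83). A dye effect adds up in each of these differences.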

How the results depend on the processing

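Members called in Holstein-Friesian numbered 3, but 1 in the same dye (TRIM63), 1 with the arrays of that breed alone (CTSD; CAST and TRIM63 at limma adjusted p of 0.0566 and 0.0686), and 0 to 1 when a replicate was left out. Over all probes those settings called 1017, 839 and 78 to 810 in Holstein-Friesian, in place of 1100. In Hereford the same dye called 1 (CAST, -0.42). In both marbled breeds median centring and the replicate block each called 1 (CAST, at -0.56 and -0.37). In the difference they called 2 each: CAPN2 (0.90) and CAST (1.10) with median centring, CAPN1 and CTSD with the replicate block. The block changed no other call of a member, and for the both-breeds mean the same-dye reading is identical by construction.

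Median centring moved the median of all probes to 0.10 in Hereford, -0.20 in Holstein-Friesian and 0.36 in the difference, with 315, 6678 and 6219 probes called. It reversed CTSB (0.15) and CTSD (0.31) in Hereford; CAPN1 (-0.31), CTSB (-0.46), CTSD (-0.21), GABARAP (-0.059) and TRIM32 (-0.046) in Holstein-Friesian; CTSB (-0.15) in both breeds; and CAPN1 (0.19), CAPN2, CTSB (0.61), CTSD (0.52), TRIM63 (0.066) and CTSA (0.13) in the difference. Relative to the median of all probes, Hereford values were -0.11 for CAST, 0.05 for CTSB, 0.21 for CTSD and 0.36 for TRIM63. Holstein-Friesian values were -0.11 for CAPN1, -0.91 for CAST, -0.26 for CTSB, -0.01 for CTSD, 0.60 for TRIM63, 0.14 for GABARAP and 0.15 for TRIM32. CTSB over both breeds was at -0.16. Differences were -0.17 for CAPN1, 0.54 for CAPN2, 0.25 for CTSB, 0.16 for CTSD, -0.29 for TRIM63 and -0.23 for CTSA. It also brought CAPN2 (-0.93) and CAST (-1.11) in Holstein-Friesian to limma adjusted p of 0.00788 and 0.0034, and CAPN3 (-0.99) to 0.0346, while TRIM63 (0.40) no longer passed. The same dye reversed CTSD (0.13) and TRIM63 (-0.061) in Hereford, CAPN1 (-0.034) in Holstein-Friesian, and CAPN1 (0.023), CAPN2 (0.14) and CAST (-0.10) in the difference. Leaving out 1 replicate reversed CTSD (-0.11 to 0.039, reversed without replicate 3) and TRIM63 (-0.081 to 0.19, without 4) in Hereford, CAPN1 (-0.14 to 0.067, without 1 or 3) and CTSB (-0.043 to 0.087, without 4) in both breeds, and CAPN2 in the difference (-0.11 to 0.093, without 2 or 3). With Agilent's processed signals and the deposited log ratios CTSD in Holstein-Friesian had limma adjusted p of 0.0501 and 0.0502. Loess and median centring differ by construction, and the cause of the other changes was not tested.

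Of 322 values of members under alternatives, 273 kept direction and side of the threshold, 17 lost a call, 8 gained one and 24 reversed. Only 3 of the 28 member results were called to begin with. For the others, keeping both means the same sign and still no call, whatever the change in size. All 17 lost calls were of CAST, CTSD or TRIM63 in Holstein-Friesian. For genes of the lists, whose alternatives were chosen after seeing the data, 179 of 293 kept both, 111 lost a call and 3 reversed. Averaging several probes of a gene gave no value, as each member had 1.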
